A study of Drosophila melanogaster with 31 samples.

Results

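Orco, Gr21a, Gr63a and Gr28b are 4 chemosensory receptor genes of Drosophila melanogaster, and they were taken by name from the 13821 genes with a value in the deposited tables. Orco encodes the co-receptor that pairs with a tuning odorant receptor (Or) to form an ion channel in most olfactory sensory neurons. Gr21a and Gr63a belong to the gustatory receptor (Gr) family and together form the antennal receptor for carbon dioxide, which works without Orco in the C neuron of the ab1 sensillum. Gr28b, another member of the Gr family, is known for warmth sensing by its D isoform in neurons of the arista and for light avoidance by larval body wall neurons. It is not known as a carbon dioxide receptor, so the name of an Orco-independent carbon dioxide receptor covers Gr21a and Gr63a only.

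RNA-seq of male flies covered antennae (8 libraries of the pedicel and funiculus segments) and brains (23 libraries). Antennae came from 2 strains aged 4 to 5 days: Orco2, labelled w*; TI{TI}Orco2, a mutant allele of Orco made by targeted integration in a stock with an unspecified allele of white, and OreR, a wild-type strain. In each strain, flies stimulated with odor and light, for times the labels list as 10, 20 and 30 min, were set against flies kept sensory deprived (0 min), with 2 libraries per group. All brains were OreR: flies aged 4 to 5 days were sampled at 0, 10, 20, 30 and 45 min (3 libraries per time, called 5-day brains here), and flies aged 10 and 25 days at 30 min and 0 min (2 libraries per group). Each genotype was 1 strain, so allele and strain background cannot be told apart, and the labels give neither the number of flies per library nor whether the arista was kept.

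Levels are given as TPM (transcripts per 1000000, corrected for transcript length), which allows genes to be compared, and tests were made on estimated counts (edgeR's quasi-likelihood F-test, Benjamini-Hochberg adjustment over all genes tested, threshold 0.05). In units of 1000000 estimated counts, libraries held 18.5 to 54.9 in antennae and 19.3 to 76.7 in brains. Of the tissue markers, 5 odorant-binding protein genes of antennal support cells summed to between 106120 and 120310 TPM in antennae and to between 5.52 and 220 TPM in brains, and the neuron markers elav, nSyb and brp to 348 to 491.5 TPM in antennae and 1785 to 3309 TPM in brains. Photoreceptor markers (ninaE, ninaC, trp and chp) of the eye were also present, at 501 to 5214 TPM in antennae and 76.2 to 637 TPM in brains. In bulk tissue, fewer cells of a type and less RNA per cell cannot be told apart. The 25-day brain libraries of replicate B stood apart from the other 21 brain libraries. At 30 min and at 0 min they had 0.654 and 0.694 TPM of w, the white gene, against 1.43 to 3.10 TPM in the others. Their neuron markers summed to 2906 and 3309 TPM, against 1785 to 1874 TPM in the replicate A libraries of that age and 1785 to 2945 TPM in all the others. Their fat body markers (Lsp2, Fbp1 and to) summed to 23.5 and 7.14 TPM, against 183 to 407 TPM in those A libraries and 3.74 to 407 TPM in all the others. The sums of those A libraries were nearly all to, at 406 and 177.5 TPM at 30 min and 0 min. Lsp2 was at 1.01 and 5.37 TPM in A and at 17.0 and 4.48 TPM in B. Results that rest on them are given with and without them.

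Orco lies on chromosome 3R at 5407183 to 5412406 on the minus strand in the Ensembl annotation of BDGP6.54 (dm6 coordinates). Gr21a lies on 2L at 780482 to 782885 on the plus strand, Gr63a on 3L at 3894999 to 3896603 on the minus strand, and Gr28b on 2L at 7454826 to 7462247 on the minus strand. None of the 4 overlaps another annotated gene, and the closest neighbour is Fie, 166 bases from Gr63a. Together they have 10 annotated transcripts in the files: 2 of Orco, 2 of Gr21a, 1 of Gr63a and 5 of Gr28b.

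In antennae, Orco was by far the most abundant of the 4 in OreR, followed by the carbon dioxide receptor genes. In Orco2 the carbon dioxide receptor genes were the most abundant of the 4, and Orco averaged 6.04 TPM. Averaged over the 4 OreR libraries, Orco ranked number 87 of 13092 genes with a value above 0, at 1394 TPM. Gr63a was the highest gustatory receptor gene of 60 in both strains, at 49.7 TPM in Orco2 and 37.7 TPM in OreR. Gr21a was second in Orco2 at 39.6 TPM, above the sugar receptor gene Gr64f, and number 3 in OreR at 27.8 TPM, below Gr64f. Gr28b averaged 7.68 TPM in Orco2 and 9.31 TPM in OreR.

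**Figure D1:**
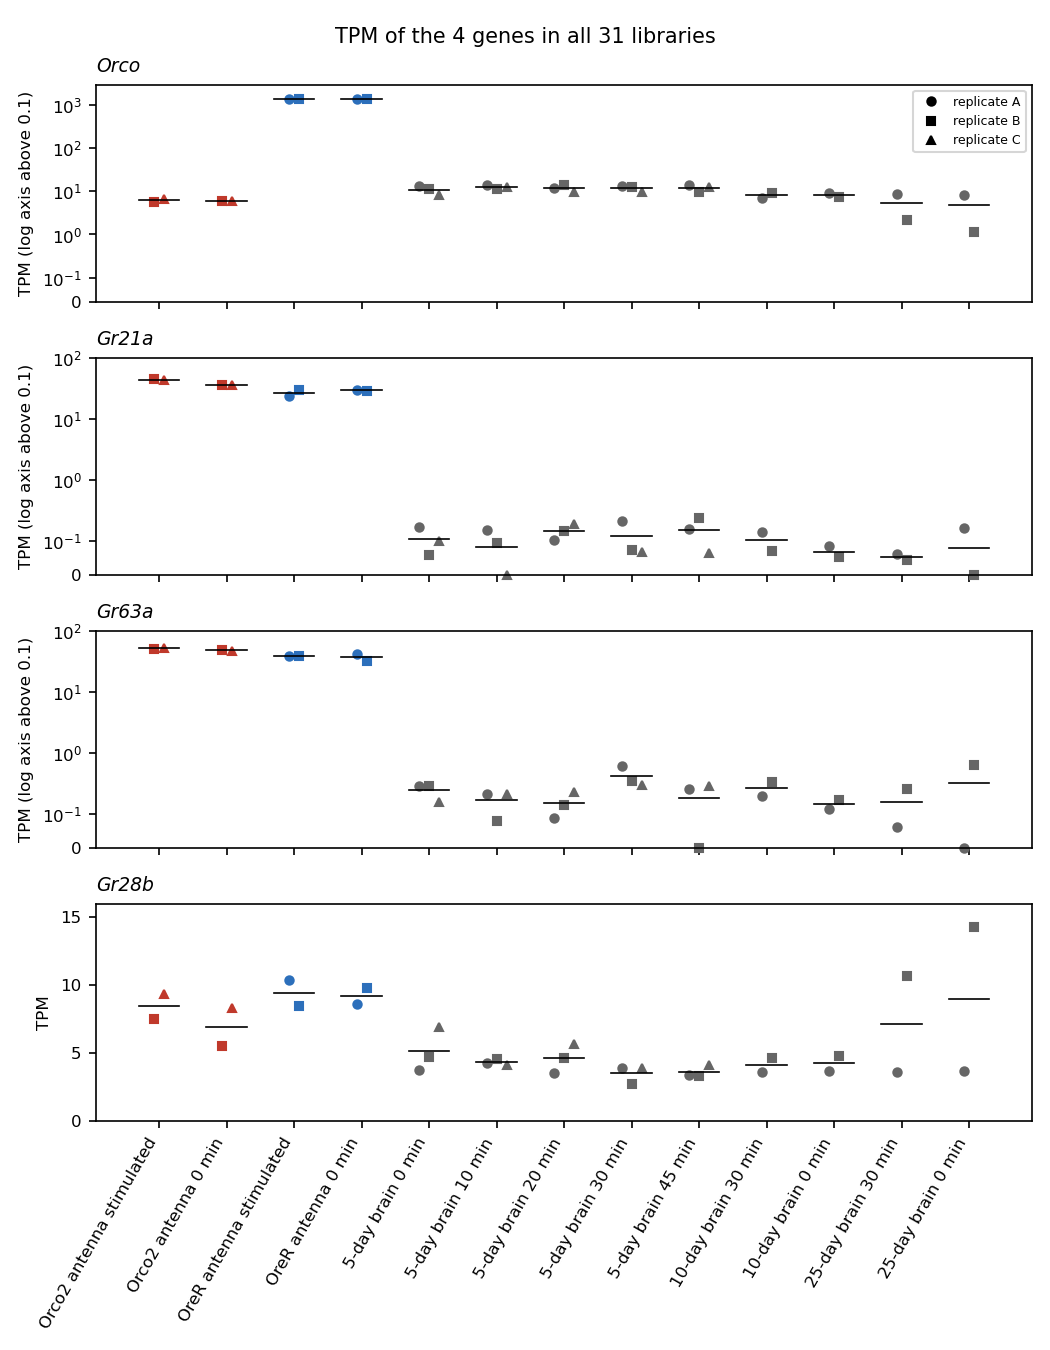
TPM of Orco, Gr21a, Gr63a and Gr28b (1 panel each) in all 31 libraries by group; each point is 1 library, its shape gives the replicate letter and short lines are group means. The axes of Orco, Gr21a and Gr63a are logarithmic above 0.1 TPM and linear below it, and that of Gr28b is linear. Orco stands near 1400 TPM in OreR antennae only, Gr21a and Gr63a are above 23 TPM in every antennal library and at most 0.640 TPM in brains, and Gr28b is at 14.3 and 10.7 TPM in the 25-day brain libraries of replicate B.

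The first question was how Orco2 antennae differed from OreR antennae. Orco was at 5.77 and 6.52 TPM in stimulated Orco2 antennae, against 1412 and 1359.7 TPM in stimulated OreR antennae. At 0 min it was at 6.02 and 5.86 TPM in Orco2 and at 1401 and 1403 TPM in OreR. The Orco2 libraries therefore match their label, with 227 to 462 estimated counts of Orco each, against 38955 to 66658 in OreR. Orco was lower in Orco2 by a log2 of -7.96 ± 0.13 (SE) after stimulation (adjusted p = 1.97e-06) and -7.95 ± 0.13 at 0 min (adjusted p = 1.99e-06). It was the only one of the 4 that passed as lower in Orco2. After stimulation 7.15% of all genes tested passed (3.01% lower in Orco2), and at 0 min 5.36% passed (2.4% lower).

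The remaining Orco counts of Orco2 were placed mostly on another transcript than those of OreR. Orco-RA starts within the gene and has 198 bases of its own, and Orco-RB starts upstream at 5412406 and has 12 bases of its own, both with 7 exons. Orco-RB took 100% of the Orco counts in 3 of the 4 Orco2 libraries and 66.4% in replicate C at 0 min, against 1.34% to 9.59% in the 4 OreR libraries. Orco-RA took 0% or 33.6% in Orco2 and 90.4% to 98.7% in OreR. The split rests on few bases that differ, and in the fit over all 24287 transcripts tested neither Orco transcript passed: Orco-RA had an adjusted p of 0.199 after stimulation and 0.379 at 0 min, and Orco-RB 0.248 and 0.400. In those edgeR fits 0.185% and 0.152% of all transcripts passed. DESeq2 called 2 of the 10 transcripts of the 4 genes in each comparison. Its share over all transcripts was not counted, so these DESeq2 calls have no background to be read against.

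**Figure D2:**
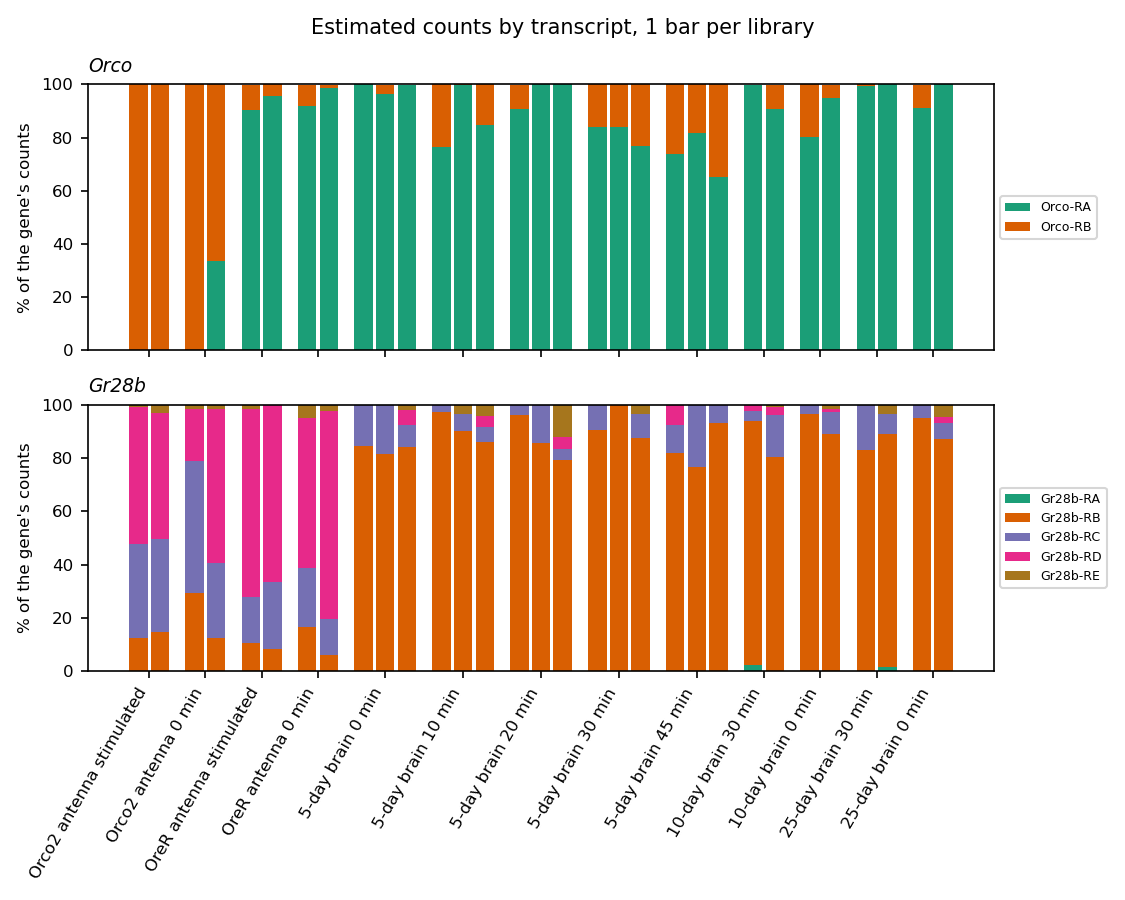
Share of each gene's estimated counts by annotated transcript for Orco (top) and Gr28b (bottom), 1 bar per library, in percent. Orco-RB fills 66.4% to 100% of the bars of Orco2 antennae, Gr28b-RD 19.6% to 78.5% of the bars in antennae, and Gr28b-RB 76.6% to 100% of the bars in brains.

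Both carbon dioxide receptor genes were at higher TPM in every Orco2 library than in any OreR library. How many of all genes separate in this way was not counted, so lack of overlap, here and below, is only a description. Gr21a was at 44.1 and 42.9 TPM in stimulated Orco2 antennae, against 23.3 and 30.0 TPM in stimulated OreR antennae. At 0 min it was at 35.2 and 36.2 TPM in Orco2, and at 30.0 and 27.9 TPM in OreR. Between stimulated antennae, Gr21a was higher in Orco2 than in OreR by a log2 of 0.73 ± 0.13 (95% interval 0.41 to 1.04; 49.4 ± 2.34 against 29.8 ± 4.75 CPM, SD, n = 2 each; edgeR adjusted p = 0.0246), where 4.14% of all genes were called higher. At 0 min the difference of 0.40 ± 0.13 (interval 0.08 to 0.71; adjusted p = 0.182) did not pass, in a comparison that called 2.97% higher. The call after stimulation was lost when 1 library was left out: the log2 difference was 0.68 without Orco2 B (adjusted p = 0.157), 0.78 without Orco2 C (0.107) and 0.54 without OreR A (0.124). It was kept without OreR B (0.90; 0.0225). With the 4 compared libraries fitted alone it was 0.70 (adjusted p = 0.0945).

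Gr63a was at 50.8 and 52.8 TPM in stimulated Orco2 antennae and at 38.9 and 38.8 TPM in stimulated OreR antennae. At 0 min it was at 48.5 and 46.9 TPM in Orco2, against 40.9 and 32.1 TPM in OreR. The groups did not overlap at either time, but neither difference passed: 0.43 ± 0.14 after stimulation (interval 0.09 to 0.78; adjusted p = 0.136) and 0.46 ± 0.15 at 0 min (0.11 to 0.80; adjusted p = 0.156). Each antennal group held 1 library with a shorter fragment length in the deposited tables (299 or 302 bases) and 1 with a longer one (355 bases). With this fragment length as a batch term both passed, at an adjusted p of 0.0352 after stimulation and 0.0402 at 0 min, with nearly the same size. That term also raised the number of all genes that passed at each time, as counted in the section on processing. The gain in calls was therefore not particular to Gr63a. Within the libraries of shorter fragments, Gr63a differed by a log2 TPM ratio of 0.39 after stimulation and 0.25 at 0 min, and within those of longer fragments by 0.44 and 0.55. The same ratios of Gr21a were 0.92 and 0.23 for shorter fragments and 0.52 and 0.37 for longer ones. Every Orco2 library was above every OreR library for both genes, so the sign of these ratios was fixed beforehand. Only their sizes add to the values above.

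Gr21a and Gr63a kept a similar proportion in both strains. The ratio of Gr63a to Gr21a on the TPM scale was 1.15 to 1.38 in Orco2 antennae and 1.15 to 1.67 in OreR antennae. The ratio of Orco to Gr63a was 0.113 to 0.125 in Orco2 and 34.3 to 43.7 in OreR. Gr21a-RB, the shorter Gr21a transcript, took 74.4% to 79.9% of the gene's counts in Orco2 and 73.3% to 80.5% in OreR. It lies wholly within Gr21a-RA, so this division is an estimate by kallisto with no base of its own to rest on.

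Gr28b did not pass in either comparison, and its TPM ranges overlapped after stimulation but not at 0 min, where Orco2 was lower. It was at 7.53 and 9.37 TPM in stimulated Orco2 antennae, against 10.4 and 8.48 TPM in stimulated OreR antennae. At 0 min it was at 5.50 and 8.31 TPM in Orco2, and at 8.62 and 9.77 TPM in OreR. The log2 differences were -0.12 ± 0.21 after stimulation (interval -0.61 to 0.37; adjusted p = 0.778) and -0.33 ± 0.21 at 0 min (-0.82 to 0.16; adjusted p = 0.547). Its 5 transcripts each start with an exon of their own (633 to 723 bases) and share the last exons, so their counts can be separated. Gr28b-RD, the transcript of the warmth-sensing isoform, took 19.6% to 57.9% of the counts in Orco2 and 56.3% to 78.5% in OreR, and the ranges overlapped. Gr28b-RC took 28.2% to 49.7% in Orco2 and 13.5% to 25.1% in OreR, and the ranges did not overlap. No Gr28b transcript passed in the transcript fit: Gr28b-RC was at a log2 of 0.62 ± 0.64 after stimulation and 0.76 ± 0.64 at 0 min, and Gr28b-RD at -0.62 ± 0.69 and -1.05 ± 0.70 (adjusted p from 0.851 to 1).

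**Figure D3:**
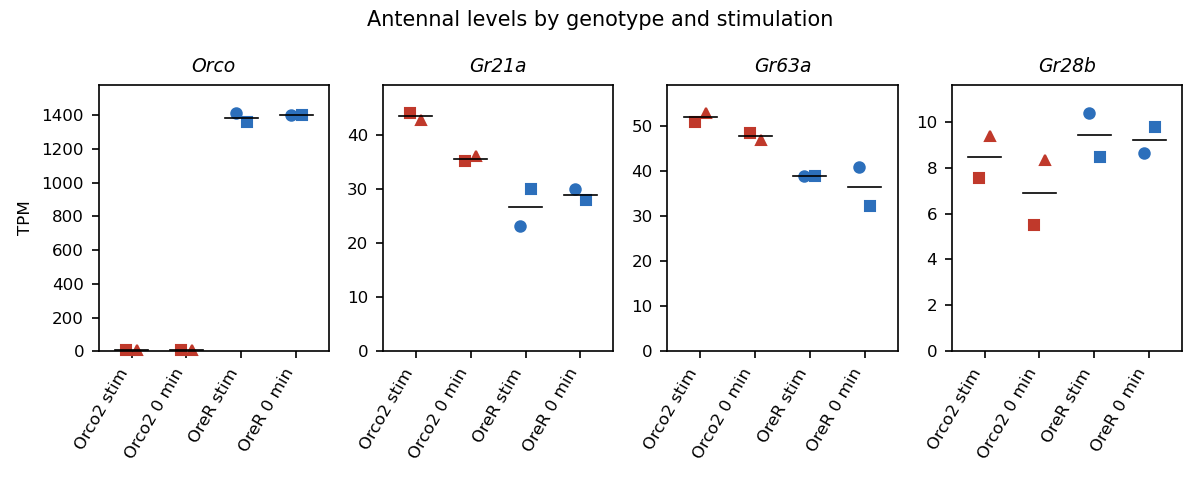
TPM of the 4 genes in antennae on linear axes from 0, by strain and stimulation; points are single libraries (n = 2 per group), shapes give the replicate letter as in the plot of all libraries, and short lines are group means. Orco2 libraries lie at 35.2 to 44.1 TPM for Gr21a and 46.9 to 52.8 TPM for Gr63a, above OreR libraries at 23.3 to 30.0 and 32.1 to 40.9 TPM, while those of Gr28b overlap.

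Of the other receptor genes of the ab1 sensillum, Or92a was lower in Orco2 at both times, and the others did not pass. Or92a, the receptor of the B neuron of ab1 and the highest tuning Or gene in OreR antennae at 191 TPM, stood at 61.6 ± 16.2 CPM in stimulated Orco2 and 166 ± 4.31 CPM in stimulated OreR antennae (log2 -1.43 ± 0.18; adjusted p = 0.00578). At 0 min it was lower in Orco2 by -1.37 ± 0.18 (57.9 ± 6.17 against 149 ± 5.18 CPM; adjusted p = 0.00817). Or42b, the receptor of the A neuron, was at -0.28 ± 0.14 and -0.30 ± 0.14, and Or10a of the D neuron at -0.27 ± 0.13 and -0.24 ± 0.13, which did not pass. Or10a and Gr10a are annotated over the same span of the X chromosome and carried the same values, so they cannot be told apart.

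**Figure D4:**
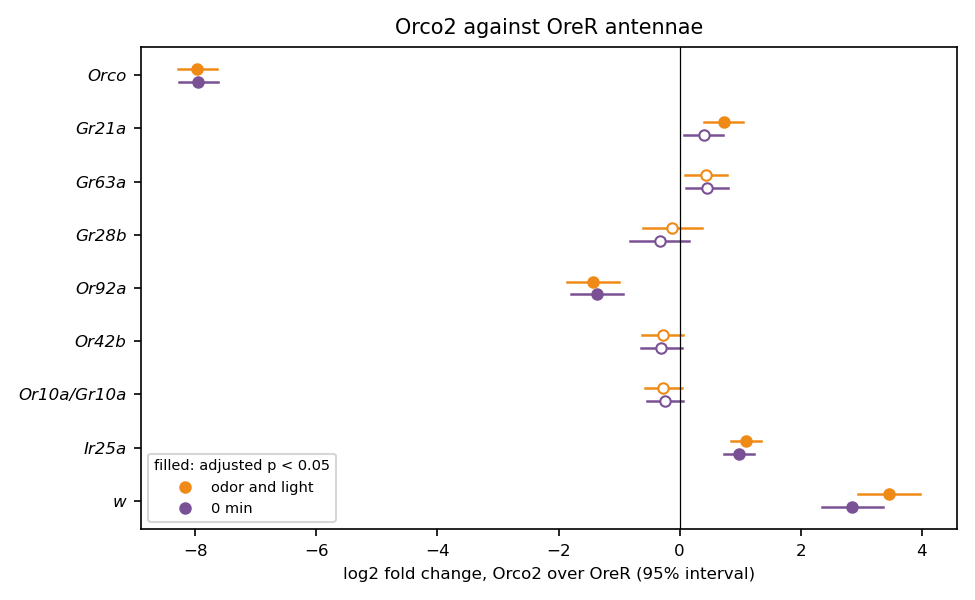
Log2 fold change of Orco2 over OreR antennae after odor and light (orange) and at 0 min (purple), with 95% intervals from the fit of all 8 antennal libraries; filled points passed an adjusted p of 0.05. Orco lies near -7.95 at both times, Gr21a and Gr63a have intervals above 0 with a filled point for Gr21a after stimulation only, and Or92a lies near -1.4.

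Of 58 listed Gr genes besides the 3 here, 57 were in the files, 44 had a count in antennae and 22 passed the filter on low counts. After stimulation 1 was higher and 2 were lower in Orco2 (median log2 difference -0.04, against -0.02 over all genes tested), and at 0 min 0 were higher and 3 lower (median -0.30, against 0.03). Over all genes tested, 4.14% were higher and 3.01% lower after stimulation, and 2.97% and 2.4% at 0 min. The bitter receptor gene Gr32a was lower by -4.56 at both times (0.408 and 0.426 CPM in Orco2, against 9.49 and 9.94 CPM in OreR; adjusted p = 0.00303 and 0.00333), and Gr98b by -4.10 and -4.52. Gr93a passed at 0 min, at -2.23 ± 0.48 (adjusted p = 0.04999), and Gr64a, of the sugar receptor cluster, passed after stimulation, at 1.97 ± 0.34 (adjusted p = 0.0195). A difference between the times was tested by the interaction alone, which no gene passed.

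The tuning Or genes, whose proteins need Orco, were lower as a group by count. Of 59 listed, 46 were tested, of which 27 were lower and 0 higher after stimulation (median -1.56) and 25 lower and 0 higher at 0 min (median -1.31). At an unadjusted p under 0.05, 1 of the 46 was higher at each time. Of all 11298 genes tested, 2463 were under this unadjusted p after stimulation and 1843 at 0 min, in either direction. Counts at this p below are to be read against those numbers. By adjusted p the leading genes were Or47b (-5.61), Or69a (-5.39), Or19b (-4.59) and Or46a (-8.05), all after stimulation. In OreR antennae the summed TPM of all Or genes was close to that of Orco: the ratio of the sum to Orco was 1.03 to 1.08 in the 4 libraries, with sums of 1438 to 1523 TPM. In Orco2 antennae the sums were 529.8 to 699 TPM and the ratio to the residual Orco was 88.0 to 109.95. Of the 10 channel, adaptor and membrane protein genes listed for olfactory transduction, 0 passed at either time (2 after stimulation and 1 at 0 min at an unadjusted p under 0.05). Of the listed transcription factors of olfactory neurons, 0 of 8 tested passed (1 and 2 unadjusted). Of the Myb-MuvB complex, which restricts Gr63a expression to its neurons, 0 of 10 passed (4 and 1 unadjusted).

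Gr28b was also set beside other receptors of temperature and humidity. Of 12 listed, 10 were tested. After stimulation 1 was higher and 1 lower in Orco2 than in OreR, and at 0 min 1 was higher and 2 lower. Of all genes tested, 7.15% passed after stimulation and 5.36% at 0 min. TrpA1, a heat-activated channel gene, was at -2.03 ± 0.12 after stimulation and -2.32 ± 0.13 at 0 min (adjusted p = 0.000409 and 0.00028). Ir25a, the ionotropic co-receptor gene that also serves cool and humidity sensing, was at 1.10 ± 0.10 and 0.99 ± 0.10 (adjusted p = 0.00232 and 0.0035). Ir93a passed at 0 min only, at -1.23 ± 0.24 (adjusted p = 0.0318).

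Other features moved with the strain. The strain marker w stood at 56.4 ± 3.29 CPM in stimulated Orco2 antennae and 5.12 ± 0.71 CPM in stimulated OreR antennae (log2 3.46 ± 0.22; adjusted p = 0.000435), and differed by 2.85 ± 0.21 at 0 min. Fat body markers summed to 2992 to 3812 TPM in Orco2 and 2027 to 2269 TPM in OreR. These sums were nearly all to, at 2945 to 3777 TPM in Orco2 and 2022 to 2262 TPM in OreR. Lsp2 stood at 10.5 to 52.6 TPM in Orco2 and 4.99 to 11.6 TPM in OreR. The sums therefore follow to and do not measure the amount of fat body. By edgeR, to was higher in Orco2 by 0.65 after stimulation (adjusted p = 0.0263) and by 0.73 at 0 min (0.0196). Lsp2 was at 1.36 after stimulation, which did not pass (adjusted p = 0.225), and at 3.28 at 0 min (0.0303). Fbp1 was at 0 in the 4 Orco2 libraries. Neuron markers summed to 348 to 419 TPM in Orco2 and 377 to 491.5 TPM in OreR, and support cell markers to 110300 to 118920 TPM in Orco2 and 106120 to 120310 TPM in OreR. None of either list passed. Johnston's organ markers (nan, iav and nompC), of the hearing organ in the pedicel, summed to 54.1 to 71.9 TPM in Orco2 and 48.6 to 56.4 TPM in OreR. After stimulation 0 of the 3 passed by edgeR, and 3 were higher in Orco2 at an unadjusted p under 0.05 (median log2 0.36; nompC at 0.84, adjusted p = 0.0521). At 0 min 0 passed and 0 were under that unadjusted p (median 0.19). Of all 11298 genes tested, 2463 and 1843 were under it at these times, in either direction. Photoreceptor markers summed to 1438 to 5214 TPM in Orco2 and 501 to 4525 TPM in OreR, and 0 of 4 passed at either time (0 unadjusted). Their ninaE was higher in the library with shorter fragments in each group: 2410 against 1329 TPM in stimulated Orco2, 2421 against 840 TPM in stimulated OreR, 4796 against 2297 TPM in Orco2 at 0 min and 4156 against 465 TPM in OreR at 0 min. Of the genes next to the 4, CG3544, 1451 bases from Gr21a, passed at -1.73 ± 0.22 after stimulation and -1.54 ± 0.22 at 0 min (adjusted p = 0.00573 and 0.0104). Of the other neighbours, CG2663 and CG14669 beside Orco, Fie and Lamtor4 beside Gr63a, and Gr28a and CG6055 beside Gr28b did not pass, and CG13947 beside Gr21a was under the filter. The part of these differences in those of Gr21a and Gr63a was not tested.

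Stimulation with odor and light moved none of the 4 genes past the threshold in either strain, nor any other of the 11298 antennal genes tested (0% called; 186 genes in OreR and 241 in Orco2 at an unadjusted p under 0.05; DESeq2 called 9 and 31 genes, limma 0). With the values given above, stimulated against 0 min, Gr21a differed by 0.27 ± 0.13 in Orco2 antennae (interval -0.04 to 0.59; unadjusted p = 0.0796), where the groups did not overlap, and by -0.06 ± 0.13 in OreR antennae (-0.38 to 0.26). Gr63a differed by 0.11 ± 0.14 in Orco2 (-0.23 to 0.45) and by 0.13 ± 0.15 in OreR (-0.21 to 0.48). Gr28b differed by 0.29 ± 0.21 in Orco2 (-0.20 to 0.78) and by 0.08 ± 0.21 in OreR (-0.41 to 0.57). The interval of Orco in OreR, -0.21 to 0.25 around 0.02, was the narrowest of these. The interaction of strain and stimulation was 0.33 ± 0.19 for Gr21a (interval -0.12 to 0.78), 0.21 ± 0.29 for Gr28b, -0.02 ± 0.20 for Gr63a and -0.01 ± 0.14 for Orco, and 0% of all genes passed it by edgeR (316 at an unadjusted p under 0.05; 30 by DESeq2 and 0 by limma).

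Over the 8 antennal libraries, the genes most like each of the 4 were found by Pearson's r of log2(CPM + 1), given as a description, because the libraries fall into 2 strains. Orco was most like Or19a, nompA and Or19b (r = 0.998 each). Gr21a was most like Msr-110, toe and CG31516 (r = 0.97 each), Gr63a like Dnaaf4, CG14194 and CG7970 (0.97), and Gr28b like Hs2st (0.98), cv-2 and CG10663 (0.96). Gr63a was number 476 of 11297 genes in likeness to Gr21a (r = 0.87), and Gr21a number 339 in likeness to Gr63a.

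In brains, 2 of the 4 genes were at the limit of detection and 2 were measurable. Gr21a had 0 to 7 estimated counts per brain library and 60 in all 23 together (at most 0.240 TPM), and Gr63a 0 to 14 and 113 in all (at most 0.640 TPM). Each was at 0 in 2 libraries, which allows up to 0.0616 and 0.0676 CPM for Gr21a and up to 0.152 and 0.0966 CPM for Gr63a, counting error only, and both were under the filter of the brain fit. Orco was at 7.08 to 14.3 TPM in 21 of the brain libraries and at 2.18 and 1.17 TPM in the 25-day replicate B libraries at 30 min and 0 min. Gr28b was at 2.73 to 6.89 TPM in the same 21 libraries and at 10.7 and 14.3 TPM in those B libraries, and was the second highest Gr gene of 60 in brains, after Gr39a at 22.7 TPM.

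Antenna against brain was tested at 0 min, OreR antennae against 5-day OreR brains, in a fit of all 31 libraries in which 58.1% of the genes tested passed and 30.1% were higher in antennae. All 4 genes were higher in antennae. Gr21a was higher by a log2 of 8.34 ± 0.63 (27.3 ± 1.82 against 0.0867 ± 0.0612 CPM; adjusted p = 4.17e-10) and Gr63a by 8.03 ± 0.66 (32.8 ± 6.30 against 0.132 ± 0.0409 CPM; adjusted p = 1.56e-09). Orco was higher by 7.71 ± 0.60 (1753 ± 10.5 against 8.38 ± 1.95 CPM; adjusted p = 5.81e-10). Gr28b was higher by 1.499 ± 0.40 (8.67 ± 0.505 against 3.05 ± 0.934 CPM; adjusted p = 0.00295), a call lost with limma on log2 of TPM with a pseudocount of 1 (0.77; adjusted p = 0.0931) or 0.1 (0.87; 0.096). Brains and antennae differed in fragment length and in many genes, so tissue and library preparation cannot be told apart.

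The brain values of Orco were set against antennal markers measured in the same way. As a percent of the mean TPM of OreR antennae, Orco in brains was at 0.0840% to 1.03% (median 0.711%), and at 0.508% to 1.03% (median 0.810%) in the 21 libraries other than 25-day B. The odorant-binding protein markers were at 0.00488% to 0.194% (median 0.0173%), below Orco in 23 of 23 brain libraries. Their brain sum rests largely on Obp19d, at 213 of 220 TPM in the highest library (5-day, 10 min, replicate A). In 5-day replicate B at 0 min Obp83a was higher than Obp19d (2.57 against 2.08 TPM). The 4 ab1 receptor genes together were at 0.735% to 2.43%, but this sum holds the shared value of Or10a and Gr10a under both names. That value was 0.537 to 2.44 TPM in brains, against 15.5 to 16.8 TPM in OreR antennae. Or42b was at 0.113 to 1.05 TPM in brains, against 72.2 to 89.3 TPM in OreR antennae. Or92a was at 0.377 to 3.11 TPM, against 183 to 201.5 TPM. All Or genes together were at 5.58% to 13.4%. Estimated counts of Orco were 37.1 times those of Gr21a and Gr63a together over all brains, and 28.8 times over the 4 OreR antennal libraries. How much of the Orco signal in brains came from antennal tissue was not tested.

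**Figure D5:**
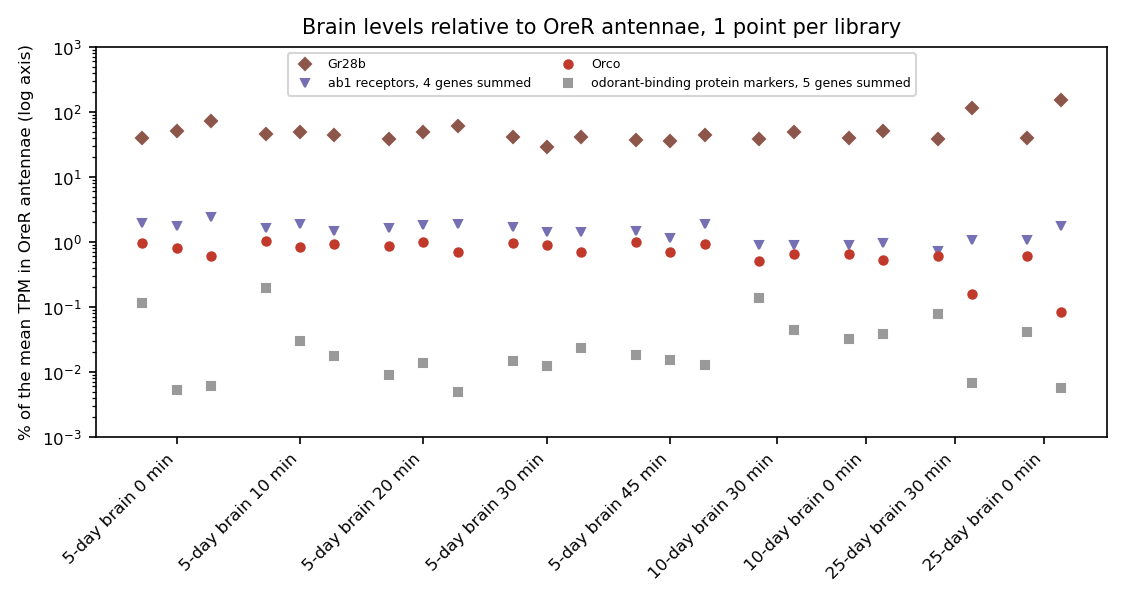
Levels in the 23 brain libraries as a percent of the mean TPM of the 4 OreR antennal libraries, on a log axis, 1 point per library, for Gr28b, the 4 ab1 receptor genes summed, Orco, and the 5 odorant-binding protein markers summed. The ab1 sum holds the shared value of Or10a and Gr10a under both names, and the odorant-binding protein sum rests largely on Obp19d in brains. Orco lies between 0.0840% and 1.03% and above the odorant-binding protein markers in all 23 libraries, and Gr28b between 29.3% and 154%; without the 25-day B libraries the ranges are 0.508% to 1.03% and 29.3% to 73.9%.

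The transcripts in use differed between the tissues for Gr28b. Gr28b-RB took 5.85% to 29.2% of the gene's counts in antennae and 76.6% to 100% in brains. Gr28b-RD took 19.6% to 78.5% in antennae and 0% to 7.41% in brains, with 45.6 estimated counts over the 23 brain libraries. Gr28b-RC took 13.5% to 49.7% in antennae and 0% to 23.4% in brains, and Gr28b-RE at most 4.93% and 11.9%. Gr28b-RA, which starts farthest upstream, had 0 counts in antennae and 6.83 in all brains together. The antennal and brain ranges of Gr28b-RB and of Gr28b-RD did not overlap, and this held for both strains of antennae and all ages of brains. For Orco, Orco-RA took 65.4% to 100% of the counts in brains and 90.4% to 98.7% in OreR antennae. In 5-day brains Orco-RB took 0% to 3.43% at 0 min, 0.139% to 23.5% at 10 min, 0% to 9.21% at 20 min, 16.1% to 23.04% at 30 min and 18.1% to 34.6% at 45 min. The ranges at 30 and 45 min did not overlap that at 0 min. All libraries at 30 and 45 min had a fragment length of 336 bases. At 0, 10 and 20 min replicates A and B had 370 bases and only C had 336. In A and B, late time and library preparation therefore cannot be told apart. In replicate C Orco-RB took 0.0098% at 0 min, 15.2% at 10 min, 0.00013% at 20 min, 23.04% at 30 min and 34.6% at 45 min. In a two-sided exact permutation test, chosen after these shares were seen, 30 and 45 min each had p = 0.1 against 0 min. This is the smallest that 3 against 3 libraries allow (0.2 adjusted over 4 times). The split rests on the few bases named above, on 136 to 485 Orco counts per library at 30 and 45 min.

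Neither Orco nor Gr28b passed for stimulation in brains as a whole gene, in comparisons in which 0% of the 10431 genes tested passed by edgeR. At an unadjusted p under 0.05 there were 204, 93, 229 and 181 genes at 10, 20, 30 and 45 min in 5-day brains, 335 in 10-day brains and 75 in 25-day brains. DESeq2 called 11, 16, 16 and 16 genes in 5-day brains, 121 in 10-day and 1 in 25-day brains, and limma 1 to 4. At 10, 20, 30 and 45 min, 5-day brains differed from 0 min by 0.24 ± 0.50, 0.16 ± 0.50, 0.17 ± 0.50 and 0.15 ± 0.50 for Orco, with mean levels of 11.0 TPM at 0 min and 12.9, 11.9, 12.01 and 12.1 TPM at the later times. For Gr28b the differences were -0.24 ± 0.41, -0.14 ± 0.41, -0.48 ± 0.42 and -0.46 ± 0.42, with 5.12 TPM at 0 min and 4.32, 4.61, 3.51 and 3.61 TPM at the later times. The standard errors are wide relative to these differences, and all the groups overlapped. The shift of fragment length in replicates A and B, given above, also falls between 20 and 30 min here. In 10-day brains Orco was at 7.08 and 9.08 TPM at 30 min, against 9.18 and 7.48 TPM at 0 min, and Gr28b at 3.57 and 4.63 TPM against 3.65 and 4.82 TPM. In 25-day brains Orco was at 8.49 and 2.18 TPM at 30 min and at 8.36 and 1.17 TPM at 0 min, and Gr28b at 3.59 and 10.7 TPM against 3.70 and 14.3 TPM. In each pair the low Orco value and the high Gr28b value belong to replicate B.

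Age was compared at 0 min. 10-day brains differed from 5-day brains by -0.33 ± 0.56 for Orco and -0.20 ± 0.46 for Gr28b (adjusted p = 0.792 and 0.854), where 0.115% of all genes passed. 25-day brains differed from 5-day brains by -1.12 ± 0.58 for Orco (4.76 ± 5.08 against 11.0 ± 2.43 TPM; adjusted p = 0.363) and by 0.89 ± 0.45 for Gr28b (9.01 ± 7.503 against 5.12 ± 1.60 TPM; adjusted p = 0.357), where 1.65% passed. Both values depend on 1 library. Without 25-day B at 0 min the difference was -0.31 for Orco (adjusted p = 0.781) and -0.37 for Gr28b (adjusted p = 0.716), and without 25-day A it was -3.14 for Orco (adjusted p = 0.0155) and 1.55 for Gr28b (adjusted p = 0.0363). With both 25-day B libraries left out, an alternative chosen after seeing the data, it was -0.31 for Orco (adjusted p = 0.553) and -0.37 for Gr28b (adjusted p = 0.541). The numbers of all genes that passed then were 1266 at 10 days and 602 at 25 days, against 12 and 172 with every brain library. In the B libraries of that age, at 30 min and 0 min, support cell markers stood at 7.73 and 6.44 TPM, against 46.0 to 87.4 TPM in the A libraries. Between B and A, the summed Or genes went the other way from Orco, at 144 and 165 TPM in the B libraries and 81.8 and 99.7 TPM in the A libraries. The 21 brain libraries other than 25-day B ranged over 5.52 to 220 TPM for support cell markers and 81.8 to 196 TPM for Or genes. The B values of both sums lay within these ranges. The part of these sums in the levels of Orco and Gr28b was not tested.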

How the data were processed

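Bulk RNA-seq of Drosophila melanogaster antennae (8 libraries) and brains (23 libraries) was analysed, in 13 groups taken from the labels. HDAC6 mutant brains were not analysed here. The authors deposited, per the file headers, 1 kallisto table per library with estimated counts and TPM for each of 30490 transcripts. The submitters' processing notes name the tools kallisto 0.43.1, CASAVA 1.7 and edgeR 3.18.1, and list GRCm38 and dm6 as builds. For the annotation release and strandedness of the reads the sources used here give nothing. Reads without molecular identifiers are not independent molecules, so limits from counts cover counting error only.

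Transcripts were matched to genes by FlyBase transcript ID (30255 matched, to 13821 genes; the 235 unmatched held 0.396% to 0.514% of the counts of a library). Deposited TPM values were summed per gene for levels. Deposited estimated counts, 18.5 to 76.7 per library in units of 1000000, were summed per gene and rounded for tests with edgeR 4.0.16 in R 4.3.3 (TMM scaling, filterByExpr, robust quasi-likelihood F-test, Benjamini-Hochberg over all genes). Antennae (11298 genes), brains (10431 genes), all libraries (11772 genes) and antennal transcripts (24287) were fitted separately, with 1 coefficient per group. CPM are from the same fits, so those of the fit of all libraries differ slightly from the antennal ones. Standard errors are the log2 difference divided by the square root of F. The scripts were checked on simulated counts, and tables were handled in Python 3.11.15 with pandas 2.3.3.

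Alternatives were RLE size factors, DESeq2 1.42.0, no filter, the compared libraries alone, limma 3.58.1 on log2(TPM + 1) or log2(TPM + 0.1), the replicate letter as a block, fragment length as a batch term, each library left out in turn and both 25-day B libraries left out. The labels call replicates biological but do not say which flies they came from, so p-values measure the spread between these libraries, which differed beyond sampling noise within each group (chi-square per degree of freedom of at least 23.8). Libraries of the same letter deviated together in 5-day brains at 10 min against 0 min (correlations of 0.44 to 0.59). Against 0 min the correlations were 0.12 to 0.84 at 20 min, 0.056 to 0.53 at 30 min and 0.065 to 0.60 at 45 min. The replicate block was not fitted to the comparisons of strains or of tissues. In the other comparisons none of the 4 genes passed with or without it.

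The members and lists were chosen with earlier results of these data known. Named genes are the 4 members, all ab1 receptor genes, w, up to 4 genes per other list with the smallest adjusted p in a genotype comparison, the nearest annotated genes, and the 3 genes most like each member over the antennae. No sequence is printed.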

Additional observations from a re-analysis of the deposited data

How the results depend on the processing

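Of the calls on the 4 genes, those of Orco between the strains and of Orco, Gr21a and Gr63a between antennae and brains kept direction and side of the threshold under every alternative run. Gr21a after stimulation lost its call with the compared libraries alone (0.70) and was 0.54 to 0.90 with single libraries left out. Gr63a passed with fragment length as a batch term, at 0.43 after stimulation and 0.46 at 0 min, in fits in which more of all genes passed, as counted below. Gr28b between antennae and brains lost its call by limma (0.87 with a pseudocount of 0.1 and 0.77 with 1). DESeq2 called 2 member transcripts after stimulation and 2 at 0 min, and its share over all transcripts was not counted.

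Differences that did not pass with the settings of the report changed sign as follows. Stimulation moved Orco by -0.017 in OreR antennae by limma (both pseudocounts). In Orco2 antennae it moved Orco by -0.011 with the compared libraries alone, -0.019 by DESeq2, -0.00998 with no filter, -0.0072 with RLE size factors and -0.0020 with the replicate block. By limma with pseudocounts of 0.1 and 1 the interaction was 0.0190 and 0.0195 for Gr63a and 0.062 and 0.056 for Orco. Fragment length as a batch term gave 0.046 for Orco in 10-day brains at 30 min and 0.089 for Gr28b in 10-day against 5-day brains. Without the 25-day B libraries Gr28b was at -0.37 in 25-day against 5-day brains.

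With single libraries left out, the ranges that crossed 0 or the threshold in antennae were -0.27 to 0.026 for Gr28b between strains after stimulation. With stimulation in OreR they were -0.24 to 0.10 for Gr21a, -0.053 to 0.21 for Gr28b and -0.055 to 0.36 for Gr63a, and in Orco2 -0.075 to 0.091 for Orco. The interaction ranged over -0.26 to 0.15 for Gr63a and -0.095 to 0.071 for Orco. In 5-day brains Gr28b ranged over -0.42 to 0.059 at 10 min and -0.34 to 0.16 at 20 min, and Orco over -0.0012 to 0.31 at 45 min. In 10-day brains at 30 min Gr28b ranged over -0.23 to 0.13 and Orco over -0.19 to 0.12, and in 25-day brains Gr28b over -1.27 to 0.97 and Orco over -1.09 to 2.23. Against 5-day brains Gr28b ranged over -0.38 to 0.10 at 10 days and -0.37 to 1.55 at 25 days, and Orco over -3.14 to -0.31 at 25 days. The cause was not tested.

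The number of all genes that passed also depended on the fit. Between strains after stimulation it was 808, against 423 with the compared libraries alone, 1498 by DESeq2, 2186 with the fragment length term and 260 to 542 with a library left out. At 0 min it was 606, against 311, 1093, 1372 and 264 to 286. For 25-day against 5-day brains it was 172, against 1575 with the replicate block, 543 by DESeq2, 94 with no filter, 61 with the fragment length term, 61 by limma with a pseudocount of 0.1, 0 with the compared libraries alone and 0 to 1165 with a library left out. For 10-day against 5-day brains it was 12, against 1410 with the replicate block, 552 by DESeq2, 27 with RLE, 28 and 19 by limma, 4 with no filter, 6 with the fragment length term and 0 with the compared libraries alone.

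The labels do not say that a replicate letter marks a shared batch, and the strains share only letter B, so no paired fit of the strains was made. Same-letter libraries had correlations of deviations of 0.68 in OreR antennae, 0.25 in Orco2 antennae, -0.19 in 10-day and 0.94 in 25-day brains (2 pairs each). The replicate block was run for stimulation, its interaction with strain and the comparisons within brains, where none of the 4 genes had a call to lose. None gained a call, with Gr21a at 0.27 for stimulation in Orco2 antennae and Orco at -1.39 for 25-day against 5-day brains. For stimulation the block called 1 gene in OreR and 11 in Orco2. Depth limits Gr21a and Gr63a in brains, where each library held 0 to 14 counts of either.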
